A study of Mus musculus with 36 samples.

Results

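The genes described here are 10 members of the TGF-beta and activin system: the ligands Tgfb1, Tgfb2 and Tgfb3, the latent-complex gene Ltbp1, the receptors Tgfbr1, Tgfbr2 and Tgfbr3, the activin chains Inhba and Inhbb, and the activin-binding protein gene Fst. They were listed by gene symbol, with earlier results of these data known, and no threshold on a measured value enters the rule. They are 10 of the 24421 gene symbols counted in every library. Bulk RNA sequencing covered hepatic stellate cells (HSCs, the vitamin A-storing pericytes of the liver), liver sinusoidal endothelial cells (LSECs) and hepatocytes of C57BL/6 mice. Each cell type had 4 libraries labelled WT, which the series' design text gives as mice injected with PBS, 4 taken 12 h after diphtheria toxin and 4 taken 36 h after it, 36 libraries in all. The labels describe the toxin-injected groups as depleted of Kupffer cells, which are liver-resident macrophages. They give no genotype, so the allele that makes a cell sensitive to the toxin is not stated here, and no group received toxin while keeping its Kupffer cells, so toxin and depletion cannot be told apart. No label says that each library came from its own mouse, and p-values then measure only the spread between libraries, which may be technical.

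The TGF-beta ligands are secreted as latent complexes in which latent TGF-beta binding proteins such as Ltbp1 tie the ligand to the extracellular matrix until integrins, proteases or thrombospondin release it. Active ligand binds the type II receptor Tgfbr2, which phosphorylates the type I receptor Tgfbr1 and through it the transcription factors Smad2 and Smad3, while Tgfbr3 (betaglycan) presents ligand, above all TGF-beta 2, to the signalling pair. Activins are dimers of the Inhba and Inhbb chains that signal through Acvr2a, Acvr2b and Acvr1b to the same SMAD proteins, and follistatin, made from Fst, binds and neutralises them. In the liver the pathway is best known for driving stellate cells toward a collagen-producing state and for restraining hepatocyte growth.

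Promoters of 4 members are printed because several results below turn on these genes: Tgfb2, Ltbp1 and Inhba changed in stellate cells and Inhbb was the activin chain of LSECs. Each line holds the 250 bases upstream of the RefSeq transcript start (GRCm38.p6), read 5′ to 3′ on the gene's own strand, with matches to the motifs searched in capitals.
Tgfb2 at chr1:186705990-186706239, minus strand: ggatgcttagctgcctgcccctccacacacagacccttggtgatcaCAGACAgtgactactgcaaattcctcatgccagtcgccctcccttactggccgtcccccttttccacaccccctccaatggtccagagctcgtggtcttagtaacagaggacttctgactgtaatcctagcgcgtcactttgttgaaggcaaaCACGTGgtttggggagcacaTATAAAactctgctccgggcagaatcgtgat
Ltbp1 at chr17:75005279-75005528, plus strand: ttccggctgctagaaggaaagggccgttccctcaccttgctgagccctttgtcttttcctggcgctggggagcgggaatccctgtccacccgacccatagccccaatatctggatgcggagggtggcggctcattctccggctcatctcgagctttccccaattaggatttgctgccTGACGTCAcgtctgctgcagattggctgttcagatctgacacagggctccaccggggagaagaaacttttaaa
Inhba at chr13:16011601-16011850, plus strand: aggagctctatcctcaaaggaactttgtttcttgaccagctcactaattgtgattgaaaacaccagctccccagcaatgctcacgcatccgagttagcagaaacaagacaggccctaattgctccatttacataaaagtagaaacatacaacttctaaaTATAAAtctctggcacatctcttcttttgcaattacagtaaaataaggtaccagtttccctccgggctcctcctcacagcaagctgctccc
Inhbb at chr1:119422249-119422498, minus strand: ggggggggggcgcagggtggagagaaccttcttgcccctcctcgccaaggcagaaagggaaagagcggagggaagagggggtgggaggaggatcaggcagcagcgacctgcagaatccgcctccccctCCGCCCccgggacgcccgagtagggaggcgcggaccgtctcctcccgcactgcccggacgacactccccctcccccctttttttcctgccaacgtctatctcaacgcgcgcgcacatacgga
The motifs searched on both strands were a SMAD box (CAGACA), AP-1 (TGANTCA), CRE (TGACGTCA), GC box (GGGCGG), the core promoter element known as the TATA box (TATAAA), the motif of GATA factors (spelled AGATAA), an NF-kB motif, ETS (CAGGAAG) and E-box (CACGTG). The Tgfb2 window held CAGACA 204 bases, CACGTG 51 bases and TATAAA 31 bases before the start. A TGACGTCA lay 73 bases before the start of Ltbp1 printed here, TATAAA 91 bases before that of Inhba, and a GC box, read on the opposite strand, 122 bases before that of Inhbb. Among the 32851 promoter windows of this length in the table, 17.1% held the SMAD box, 6.02% the E-box, 12.4% the TATA box, 1.55% the CRE and 32.7% the GC box. The other 4 motifs stood in 6.75% (AP-1), 9.99% (GATA), 0.98% (NF-kB) and 10.8% (ETS) of windows. A match describes the letters of the window and not a bound site. Entries were also found for Tgfb1, Tgfbr1 and Tgfbr2, which makes 7 of the 10 members matched. The window of Tgfb1 held 5 GC boxes and 1 ETS motif, and that of Tgfbr2 none of the motifs. Ltbp1 and Tgfbr1 each have a second entry at a later start: that of Ltbp1 held 2 SMAD boxes, 149 and 98 bases before the start, and that of Tgfbr1 held 1, 203 bases before it. The first Tgfbr1 entry held 2 GC boxes.

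The genes lie on 8 chromosomes (GRCm38, GENCODE M21). Inhbb (chr1:119415465-119422248) and Tgfb2 (chr1:186622792-186705989) are on the minus strand of chromosome 1, and Tgfb3 (chr12:86056745-86079041), Tgfbr2 (chr9:116084293-116175360), Tgfbr3 (chr5:107106570-107289629) and Fst (chr13:114452290-114458951) are also on the minus strand. Tgfb1 (chr7:25687002-25705077), Tgfbr1 (chr4:47353222-47414931), Inhba (chr13:16011851-16031621) and Ltbp1 (chr17:75005568-75392512) are on the plus strand. Exons of Tgfb2, Tgfb3 and Fst overlap antisense or unclassified transcripts by 115 to 257 bases, and Tgfbr3 shares 297 bases with a transcript on its own strand. Those transcripts have no line of their own in the count tables and the strand setting of the counting is not given, so reads from them cannot be told apart from reads of the member.

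The smallest library held 25404719 counts and the largest 31734631. Defining markers matched the labels in WT libraries: Lrat, a stellate cell retinoid enzyme, averaged 2949 CPM (counts per 1000000 counted reads, after scaling) in HSCs, was near 0 in LSECs at 0.925 CPM, and had no count in hepatocytes. Stab2, a scavenger receptor of LSECs, averaged 4458 CPM in LSECs against 4.06 CPM in HSCs and 8.48 CPM in hepatocytes. Alb (albumin) averaged 46222 CPM in hepatocytes against 165 CPM in HSCs and 58.9 CPM in LSECs. Hepatocyte libraries fell on 2 sides that do not follow the groups: Malat1, a nuclear RNA, was 333 to 679 CPM in 5 of them (WT replicates 1 and 2, 12 h replicate 1, 36 h replicates 1 and 2) and 35.3 to 66.7 CPM in the other 7. In a bulk library, fewer cells of a type and less RNA per cell cannot be told apart.

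In WT libraries each cell type held its own part of the system. HSCs had the highest Ltbp1, Tgfb2 and Tgfb3, and shared Inhba with hepatocytes. LSECs had the highest Tgfb1 and Tgfbr2 and were the only one of the 3 with more than 1 CPM of Inhbb in any library. Hepatocytes were the only one with more than 1 CPM of Fst, and had the lowest mean of all 3 receptors. The plot of members by cell type and time shows these levels for all 36 libraries.

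**Figure D1:**
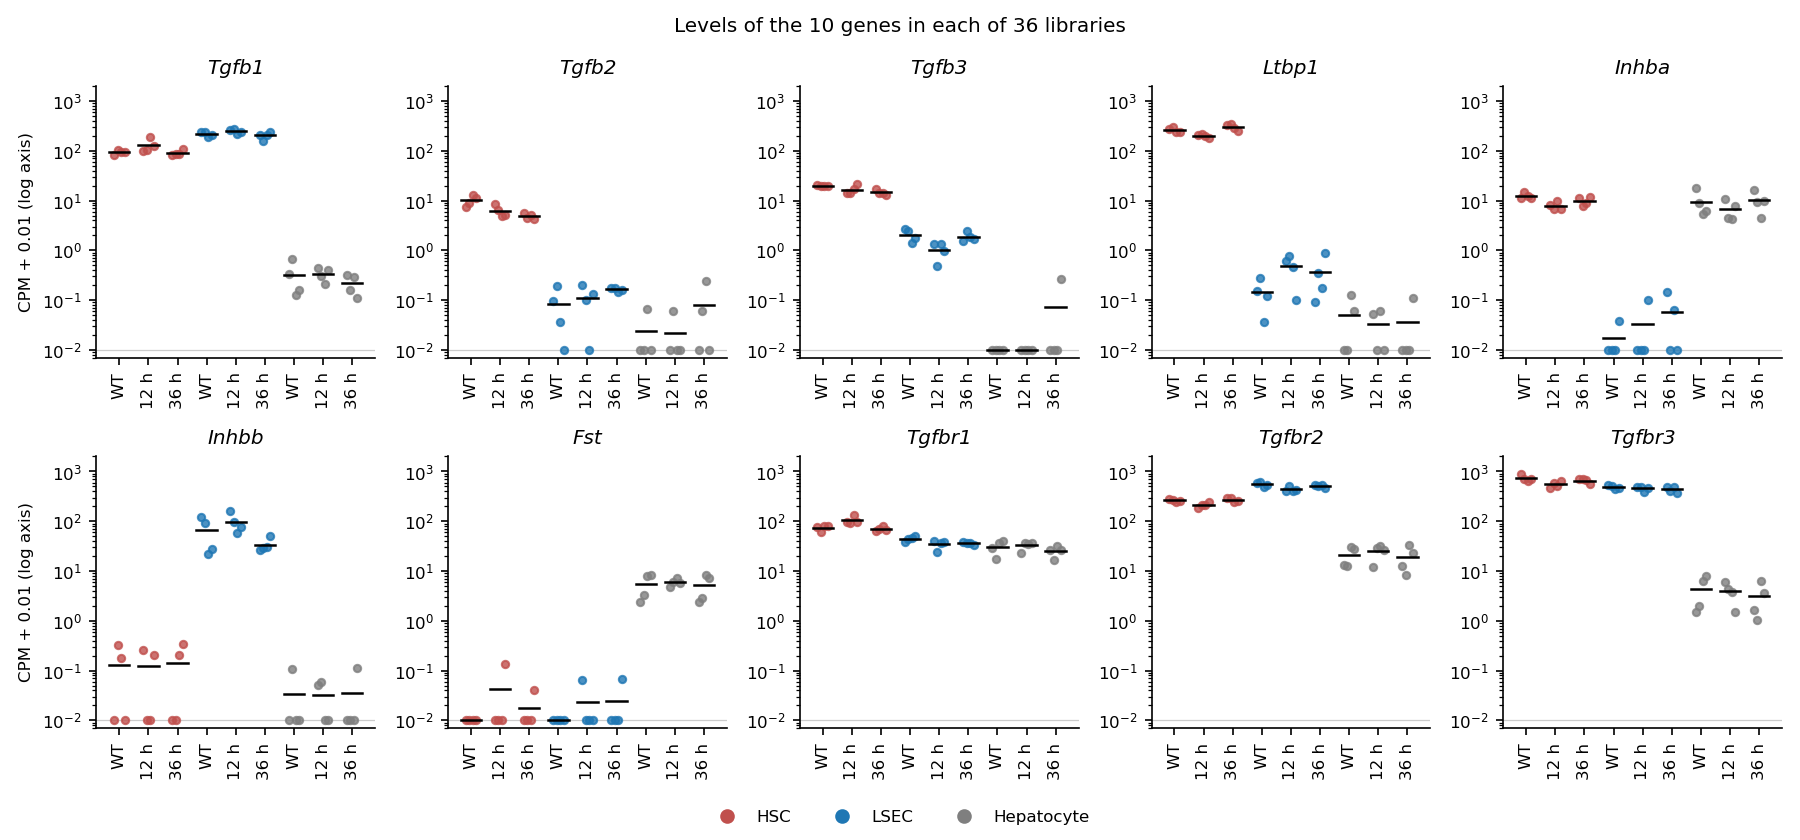
Level of each of the 10 members in CPM (plus 0.01, log axis) in WT, 12 h and 36 h libraries of HSCs, LSECs and hepatocytes; each point is 1 library (n = 4 per group) and each bar the mean. Ltbp1 and Tgfb2 sit highest in HSCs, Inhbb in LSECs and Fst in hepatocytes at all 3 times, while Inhba is shared by HSCs and hepatocytes.

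Tgfb1, the TGF-beta ligand most widely expressed in immune and endothelial cells, was 236.6, 234.3, 191.8 and 209.3 CPM in the 4 WT LSEC libraries. It was 80.9, 102.6, 94.4 and 94.8 CPM in WT HSCs and 0.114 to 0.673 CPM in WT hepatocytes. The 3 cell types did not overlap, with LSECs on top: the difference between HSCs and LSECs was -1.24 ± 0.19 on the log2 scale (± SE throughout, adjusted p = 6.59e-05, edgeR quasi-likelihood test with Benjamini-Hochberg adjustment over all genes). HSCs exceeded hepatocytes by 8.12 ± 0.29 and LSECs exceeded them by 9.36 ± 0.30 (adjusted p = 1.84e-11 and 5.73e-12).

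Tgfb2, the ligand that depends most on betaglycan, was a stellate cell transcript, at 7.47, 8.90, 13.1 and 11.1 CPM in WT HSCs against 0 to 0.182 CPM in WT LSECs and at most 0.0570 CPM in WT hepatocytes. Tgfb3 was 20.4, 19.5, 19.5 and 19.2 CPM in WT HSCs and 2.63, 2.40, 1.40 and 1.78 CPM in WT LSECs. No WT hepatocyte library had a count of Tgfb3. On the log2 scale HSCs exceeded LSECs by 7.06 ± 0.52 for Tgfb2 and by 3.24 ± 0.22 for Tgfb3 (adjusted p = 3.8e-08 and 2.35e-07). Against a floor of 3 counts over the hepatocyte group, which covers counting error only, Tgfb3 was at least 523-fold higher in HSCs and at least 54.7-fold higher in LSECs.

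Ltbp1, the large matrix-binding partner of latent TGF-beta, separated stellate cells from the other two most widely. It was 278.8, 304.2, 232.9 and 237.3 CPM in WT HSCs and 0.0260 to 0.273 CPM in WT LSECs, with at most 2 counts in any WT hepatocyte library. The difference between HSCs and LSECs was 10.88 ± 0.34 on the log2 scale (adjusted p = 1.97e-11). LSECs and hepatocytes overlapped for Ltbp1 (1.71 ± 0.86, adjusted p = 0.0827) and for Tgfb2 (2.15 ± 1.25, adjusted p = 0.131). The Ltbp1 difference passed without LSEC WT replicate 3 (0.0195), without hepatocyte WT replicate 3 (0.0328) and with no scaling factor (0.00883). The Tgfb2 difference passed without LSEC WT replicate 4 (0.0482), the LSEC library with no Tgfb2 count, and with no scaling factor (0.0361). Over the WT groups Ltbp1 had 19 counts in LSECs and 3 in hepatocytes, and Tgfb2 had 10 and 1. Both genes were in this fit only through their HSC counts, and counts this few cannot settle either difference.

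All 3 receptors were present in every library. Tgfbr2, the ligand-binding kinase, was 576.7, 604.8, 480.4 and 533.0 CPM in WT LSECs, 279.7, 268.2, 243.2 and 259.0 CPM in WT HSCs and 12.9 to 30.8 CPM in WT hepatocytes. The order LSEC, HSC, hepatocyte held without overlap, and the difference between HSCs and LSECs was -1.08 ± 0.25 on the log2 scale (adjusted p = 0.00187). HSCs exceeded hepatocytes by 3.61 ± 0.27 (adjusted p = 2.08e-08).

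Tgfbr3, the coreceptor, was 881.2, 700.8, 653.1 and 720.1 CPM in WT HSCs and 538.9, 517.7, 454.6 and 471.9 CPM in WT LSECs, and 1.49 to 7.99 CPM in WT hepatocytes. HSC and LSEC libraries did not overlap, yet the difference of 0.56 ± 0.37 on the log2 scale missed the threshold (adjusted p = 0.213), and passed it only when the fit held these 2 groups alone (adjusted p = 0.00159). Tgfbr1, the signalling kinase, had the narrowest spread over cell types. Its levels were 78.0, 60.1, 78.9 and 80.9 CPM in WT HSCs, 38.5, 44.4, 46.5 and 49.8 CPM in WT LSECs and 28.6, 17.2, 36.1 and 40.3 CPM in WT hepatocytes. HSCs exceeded LSECs by 0.72 ± 0.21 (adjusted p = 0.00869), while LSEC and hepatocyte libraries overlapped (0.54 ± 0.21, adjusted p = 0.0289). That last call was lost with RLE scaling (0.0529), with DESeq2 (0.0567) and without LSEC WT replicate 3 (0.0539), LSEC WT replicate 4 (0.0691) or hepatocyte WT replicate 1 (0.0610).

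The activin chains divided between the cell types. Inhba, the chain of activin A, was 11.4, 14.8, 12.2 and 11.2 CPM in WT HSCs and 17.8, 8.99, 5.25 and 6.04 CPM in WT hepatocytes, and 1 count was found over the 4 WT LSEC libraries. HSCs and hepatocytes overlapped (0.35 ± 0.32, adjusted p = 0.337), and the difference passed the threshold without hepatocyte WT replicate 1, the highest hepatocyte library (0.84, adjusted p = 0.00528). With no scaling factor it also passed (0.98, adjusted p = 0.0219), a setting that moved the median of all genes in this comparison from 0.18 to 0.86. Inhbb, the chain of activin B, was 120.7, 91.4, 22.1 and 27.8 CPM in WT LSECs, a wide spread within 1 group, and at most 0.314 CPM in WT HSCs and 0.0962 CPM in WT hepatocytes. Its difference between HSCs and LSECs was -9.12 ± 0.82 (adjusted p = 3.29e-07).

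Fst was 2.38, 3.32, 7.81 and 8.24 CPM in WT hepatocytes and had no count in any WT HSC or LSEC library. Against the floor of 3 counts over a group, hepatocytes were at least 238-fold higher than HSCs and at least 258-fold higher than LSECs. The 2 lower hepatocyte libraries were the 2 with high Malat1.

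Of the 10 members, 8 differed between HSCs and LSECs in WT libraries (5 higher in HSCs, 3 higher in LSECs), where 56.8% of the 13389 genes tested did (29.7% higher in HSCs, 27.1% higher in LSECs). Between HSCs and hepatocytes 8 differed (7 higher in HSCs, 1 lower) against 79.1% of all genes (43.2% higher, 35.9% lower). Between LSECs and hepatocytes 8 differed (6 higher in LSECs, 2 lower) against 79% (42.7% higher, 36.3% lower). Against hepatocytes the totals are close to the share of all genes that differ. The same test gave 8, 8 and 9 members at 12 h, where 50.5%, 74.8% and 76.2% of genes differed, and 8, 8 and 9 at 36 h, where 49.7%, 76.4% and 77% did. Between LSECs and hepatocytes some of these calls rest on few counts. At 12 h Tgfb2 passed (adjusted p = 0.0425) on 14 against 1 counts over the groups. It was lost without LSEC 12 h replicate 1 (0.119), 2 (0.0562) or 4 (0.0716) or hepatocyte 12 h replicate 1 (0.105), 3 (0.0931) or 4 (0.0937). Ltbp1 passed on 68 against 2 counts at 12 h and 50 against 2 at 36 h. At 36 h the Tgfbr2 difference between HSCs and LSECs (-0.93 ± 0.33, adjusted p = 0.0292) was lost on leaving out any HSC library (adjusted p = 0.0509, 0.0552, 0.0775 and 0.0685 for replicates 1 to 4) or LSEC replicates 1, 2 or 3 (0.0581, 0.0530 and 0.0616).

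Levels of different genes were compared per kilobase of merged exons, since a longer transcript collects more reads. In WT HSCs the order of CPM per kilobase was led by Tgfbr3 at 112.9 ± 15.1 (SD, n = 4), then Tgfbr2 at 32.1 ± 1.88, Ltbp1 at 24.6 ± 3.20, Tgfb1 at 18.5 ± 1.79 and Tgfbr1 at 11.4 ± 1.48. Tgfb3 followed at 5.81 ± 0.159, and Inhba at 1.94 ± 0.259 and Tgfb2 at 1.75 ± 0.429 did not differ beyond their spread. Among the 3 TGF-beta ligands in stellate cells, Tgfb1 had the highest level per kilobase, while Tgfb2 and Tgfb3 were the ones that HSCs held above the other cell types.

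**Figure D2:**
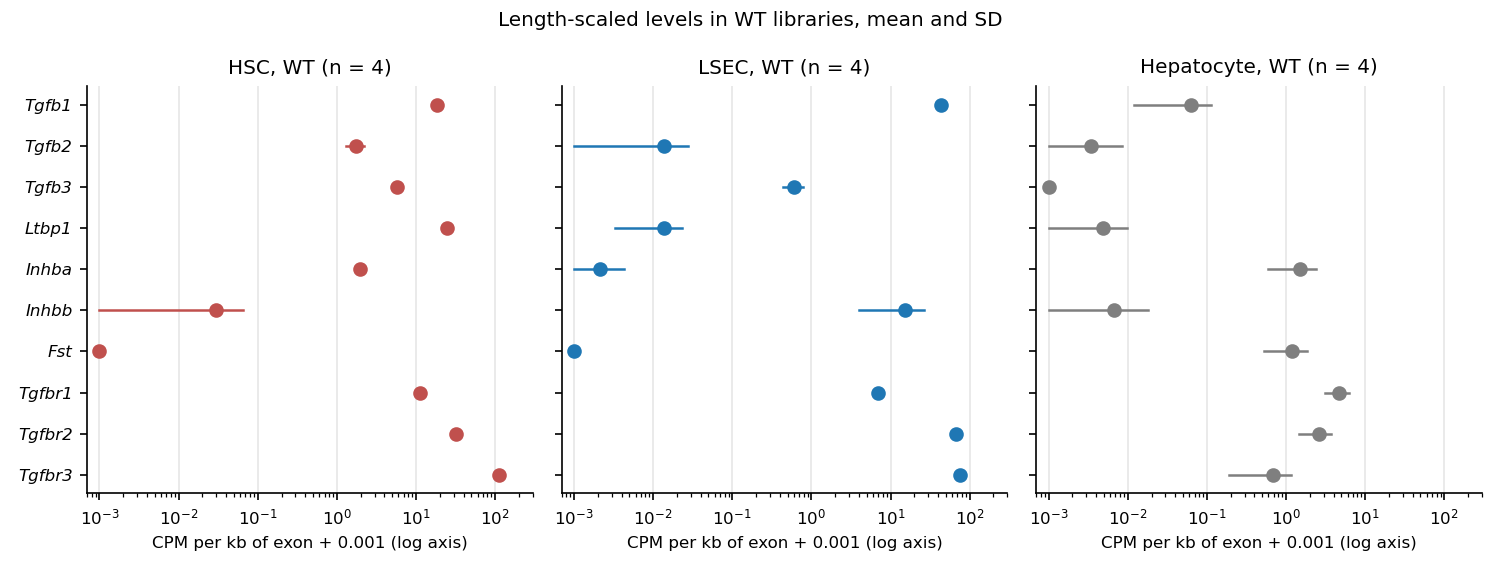
Level of each member per kilobase of merged exons in WT libraries (CPM per kilobase plus 0.001, log axis) for HSCs, LSECs and hepatocytes; points are means and bars the SD of 4 libraries. Tgfbr3 leads in HSCs (112.9) and LSECs (75.8), and Tgfbr1 in hepatocytes (4.68).

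In WT LSECs Tgfbr3 at 75.8 ± 5.98 and Tgfbr2 at 67.0 ± 6.63 CPM per kilobase (SD, n = 4) had overlapping spreads, followed by Tgfb1 at 43.2 ± 4.24. Inhbb came next at 15.4 ± 11.4, and Tgfbr1 at 6.86 ± 0.731 stood within its spread. In WT hepatocytes no member averaged above 5 CPM per kilobase: Tgfbr1 was at 4.68 ± 1.56, Tgfbr2 at 2.58 ± 1.14, Inhba at 1.49 ± 0.897 and Fst at 1.18 ± 0.658, with overlapping spreads between neighbours. Tgfb1 stood at 0.0626 ± 0.0507 in hepatocytes.

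At 12 h after toxin, stellate cells had less Inhba, Tgfb2, Ltbp1 and Tgfbr3 and more Tgfbr1 than in WT libraries. Those 5 passed the test, 4 lower and 1 higher, of 8 members with enough counts to be tested; Inhbb and Fst were left out by the filter on low counts. Over all 12676 genes tested in HSCs, 32% passed (17% higher, 15.1% lower). The median log2 fold change was -0.33 over the members tested and 0.01 over all genes. Groups did not overlap for 5 of the 8 members, against 30.7% of all genes. Leaving out 1 library gave from 2 members (without 12 h replicate 3) to 6 (without 12 h replicate 2), with 3 without WT replicate 1, 2 or 4, while DESeq2 called 7.

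**Figure D3:**
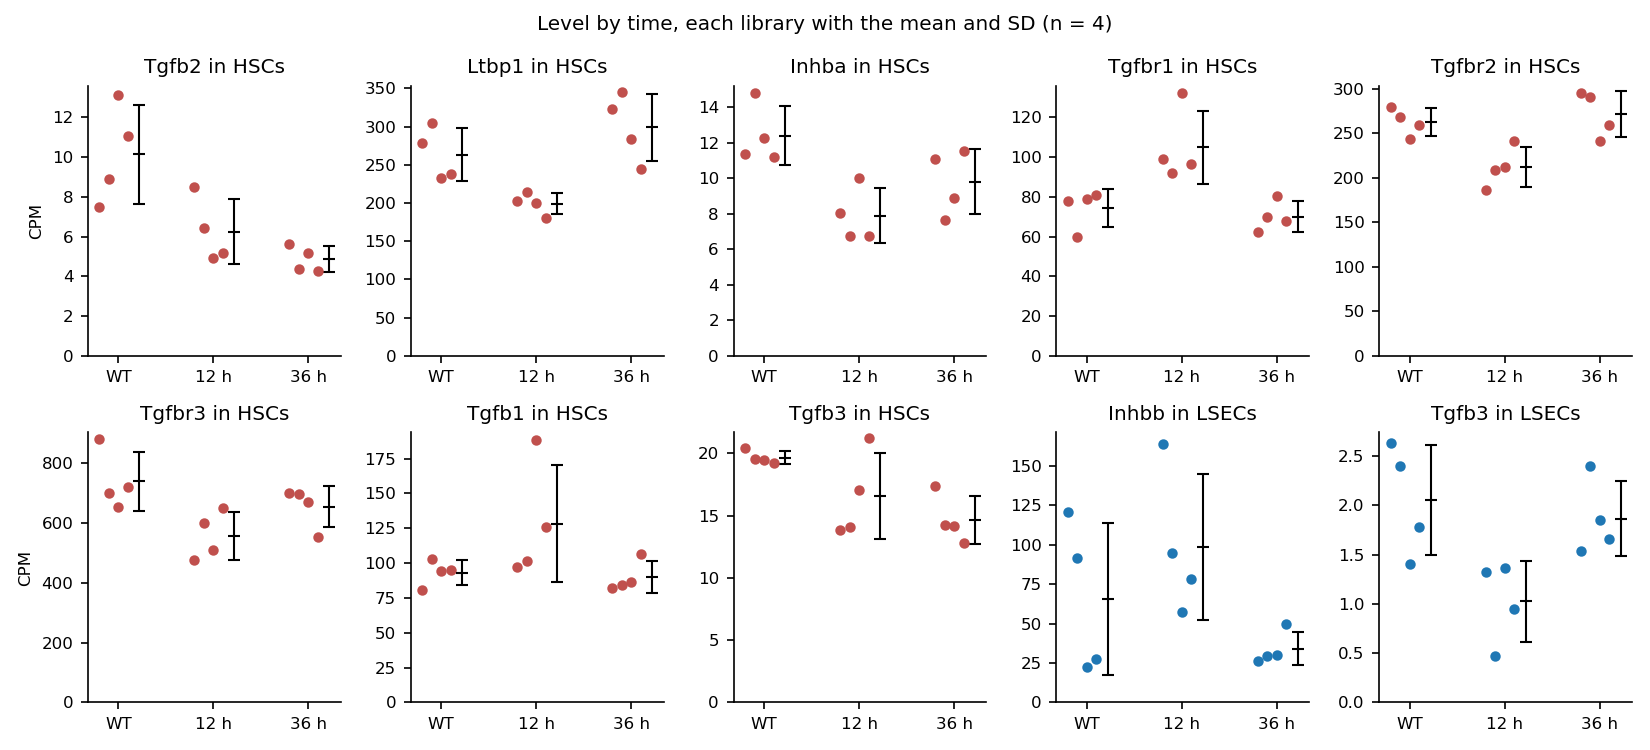
CPM on a linear axis in WT, 12 h and 36 h libraries for 8 members in HSCs (upper row and first 3 panels of the lower row) and for Inhbb and Tgfb3 in LSECs; points are the 4 libraries of a group and the bar beside them the mean and SD. In HSCs Inhba, Ltbp1 and Tgfbr3 are lower and Tgfbr1 higher at 12 h with no overlap with WT. The mean of Tgfb2 is lower at both times, with overlap at 12 h and no edgeR call against WT at 36 h.

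Inhba in HSCs went from 11.4, 14.8, 12.2 and 11.2 CPM in WT libraries to 8.04, 6.75, 10.01 and 6.73 CPM at 12 h. Every 12 h library lay below every WT library. The fold change was -0.63 ± 0.17 on the log2 scale (adjusted p = 0.0141) and passed in each of the 14 alternatives tried. At 36 h the values of 11.1, 7.67, 8.91 and 11.6 CPM overlapped both earlier groups (adjusted p = 0.782 against WT).

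Tgfb2 in HSCs went from 7.47, 8.90, 13.1 and 11.1 CPM to 8.48, 6.42, 4.94 and 5.18 CPM at 12 h and to 5.64, 4.35, 5.19 and 4.29 CPM at 36 h. At 12 h the groups overlapped only in that WT replicate 1 was below 12 h replicate 1, and at 36 h all 4 libraries were below all 4 WT libraries. At 12 h the change of -0.67 ± 0.21 passed (adjusted p = 0.0264). It no longer did without WT replicate 3 (0.0946), WT replicate 4 (0.0667), 12 h replicate 3 (0.0766) or 12 h replicate 4 (0.0661). At 36 h the change was -1.06 ± 0.21 and did not pass (adjusted p = 0.0969), although DESeq2 (0.00126) and the fit of these 2 groups alone (0.0432) called it lower.

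Ltbp1 in HSCs was 278.8, 304.2, 232.9 and 237.3 CPM in WT libraries, 203.2, 214.3, 199.6 and 180.1 CPM at 12 h and 322.7, 344.9, 283.5 and 244.9 CPM at 36 h. The 12 h libraries were the lowest 4 of the 12. It fell at 12 h by 0.38 on the log2 scale (SE 0.13, adjusted p = 0.0380) and rose from 12 h to 36 h by 0.56 ± 0.13 (adjusted p = 0.00619). The rise to 36 h passed in each alternative tried. The fall did not pass without the filter on low counts (0.0589) or without WT replicate 1 (0.0934), WT replicate 2 (0.115), 12 h replicate 1 (0.0540), 12 h replicate 3 (0.0709) or 12 h replicate 4 (0.0905).

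Tgfbr1 was the member that rose in HSCs. Its levels were 78.0, 60.1, 78.9 and 80.9 CPM in WT libraries, 98.9, 91.9, 132.2 and 96.6 CPM at 12 h and 62.3, 69.8, 80.6 and 67.9 CPM at 36 h. All 12 h libraries were above all others. The rise was 0.51 ± 0.14 at 12 h (adjusted p = 0.0115) and the change from 12 h to 36 h was -0.60 ± 0.14 (adjusted p = 0.00561), and both passed in each alternative tried.

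The other receptors went the opposite way at 12 h. Tgfbr3 in HSCs was 881.2, 700.8, 653.1 and 720.1 CPM in WT libraries and 474.4, 598.7, 507.7 and 647.8 CPM at 12 h. It fell by 0.39 (SE 0.14, adjusted p = 0.0419) with no overlap, and its 36 h values of 699.1, 695.9, 669.0 and 551.7 CPM overlapped both earlier groups. The call is a weak one. It was lost without the filter (0.0685), in the fit of 2 groups (0.0697) and without WT replicate 1 (0.136), 2 (0.0601) or 4 (0.0718), or 12 h replicate 1 (0.104) or 3 (0.107). Tgfbr2 in HSCs was 279.7, 268.2, 243.2 and 259.0 CPM in WT libraries, 186.3, 209.0, 211.5 and 241.4 CPM at 12 h and 294.8, 291.1, 241.4 and 259.2 CPM at 36 h. Its 12 h libraries lay below all WT libraries but the change of -0.29 ± 0.11 missed the threshold (adjusted p = 0.0546), and passed with DESeq2 (0.0333) or without 12 h replicate 4 (0.0297). From 12 h to 36 h Tgfbr2 rose by 0.34 ± 0.11 (adjusted p = 0.0321). That rise was lost without the filter (0.0578), in the fit of 2 groups (0.0721) and without 12 h replicate 1 (0.0800), 2 (0.0598) or 3 (0.0586), or 36 h replicate 1 (0.0882) or 2 (0.0927).

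Tgfb1 and Tgfb3 did not pass at 12 h. Tgfb1 in HSCs was 97.4, 101.8, 188.2 and 125.8 CPM at 12 h against 80.9 to 102.6 CPM in WT libraries, with replicate 3 far above the rest (0.48 ± 0.18, adjusted p = 0.0558). It passed with DESeq2 (0.0424) and without 12 h replicate 1 (0.0239) or 2 (0.0316). From 12 h to 36 h, when it was 82.4, 84.2, 86.5 and 106.6 CPM, Tgfb1 fell by 0.53 (SE 0.18, adjusted p = 0.0410). That fall was lost in the fit of 2 groups (0.0922) and without 12 h replicate 3 (0.125) or 4 (0.0565), or 36 h replicate 1 (0.104), 2 (0.0962) or 3 (0.0944). Tgfb3 in HSCs was 13.8, 14.1, 17.1 and 21.3 CPM at 12 h against 19.2 to 20.4 CPM in WT libraries (-0.23 ± 0.14, adjusted p = 0.231), and passed without 12 h replicate 4 (0.0435). At 36 h Tgfb3 was 17.4, 14.2, 14.1 and 12.8 CPM, all below WT, and did not pass (-0.43 ± 0.14, adjusted p = 0.421).

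From 12 h to 36 h, 4 of the 8 members tested in HSCs passed, 2 higher and 2 lower, where 27.9% of all genes did (12.9% higher, 15% lower). Groups did not overlap for 3 of the 8, against 25.3% of all genes. Without 12 h replicate 3, 36 h replicate 1 or 36 h replicate 2, 2 passed. Against WT, no member passed at 36 h with edgeR, 2 had an unadjusted p under 0.05 (Tgfb2 and Tgfb3), and DESeq2 called 1 (Tgfb2). Only 0.142% of all genes passed in that comparison, and groups did not overlap for 6.38% of genes and for those same 2 members. Both comparisons with WT use the same 4 WT libraries, and the change from 12 h to 36 h shares the 12 h libraries.

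Several marker lists moved in the same HSC libraries at 12 h. The summed level of 10 Kupffer cell markers went from 504.2 to 774.2 CPM in WT libraries to 133 to 449 CPM, with Clec4f, Timd4 and Cd163 at 0 at 12 h, 5 of 6 tested markers lower and 1 higher. That of 9 monocyte and neutrophil markers went from 203 to 286 CPM to 444 to 952 CPM, with 1 of 2 tested markers higher and 1 lower and S100a8 and Retnlg at 0 in both groups. A list of 10 immediate early and heat shock genes, which respond to stress, summed to 971 to 4849 CPM in WT libraries, highest in replicate 2, and to 1833 to 10467 CPM at 12 h, with 6 of 10 higher. The summed level of 12 stellate cell markers was 40531 to 54358 CPM in WT libraries and 30601 to 40764 CPM at 12 h, with 2 higher and 4 lower. LSEC markers summed to 328.4 to 365.8 CPM in WT HSC libraries and 234 to 327.9 CPM at 12 h, and platelet and megakaryocyte markers to 208 to 302 CPM and 242 to 317 CPM. Their part in the changes of the members and of the other pathway genes was not tested. Without WT replicate 2, 3 members passed at 12 h. Without 12 h replicate 4, the 12 h library with the highest immediate early and heat shock sum, 5 did, but not the same 5. Tgfb2 (adjusted p = 0.0661) and Ltbp1 (0.0905) were lost, and Tgfbr2 (0.0297) and Tgfb3 (0.0435) passed.

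LSECs showed no member past the threshold at 12 h with edgeR, of 7 tested, while 18.2% of the 12286 genes tested passed (9.74% higher, 8.5% lower). With an unadjusted p under 0.05 there were 4, and DESeq2 called 2. Tgfb2, Inhba and Fst had too few counts in LSECs to be tested. At 36 h none passed and 1 had an unadjusted p under 0.05, where 0% of genes passed, and DESeq2 called none of the members. The plot of log2 fold changes sets HSCs and LSECs side by side.

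**Figure D4:**
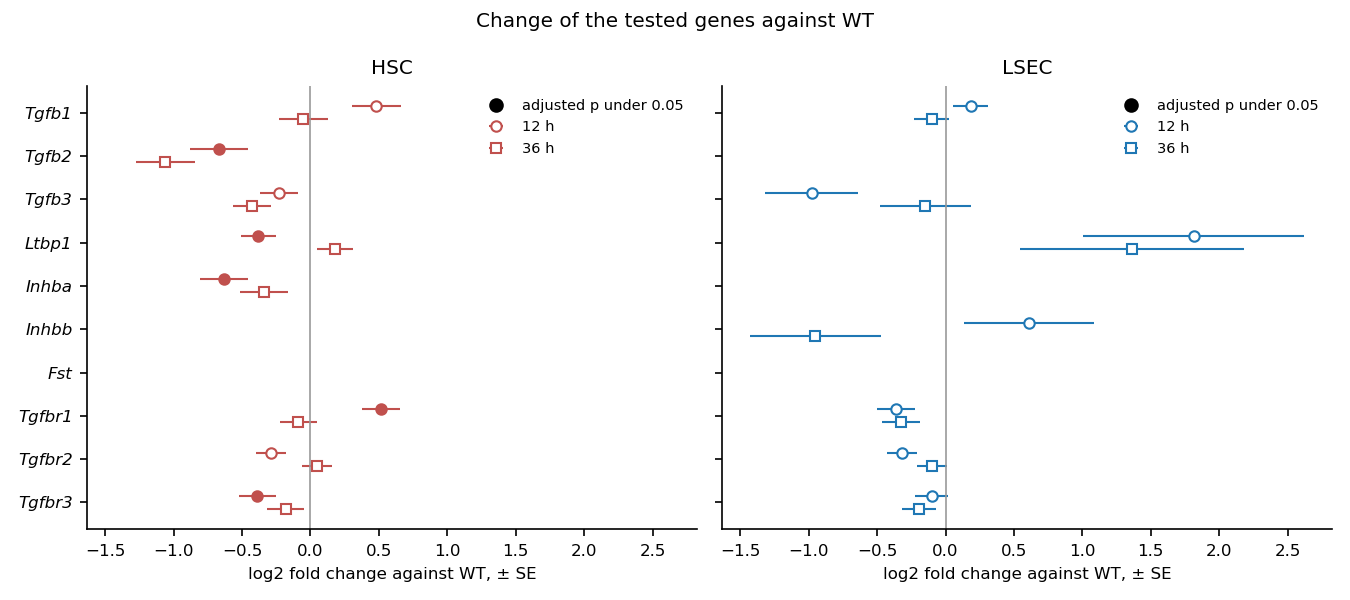
Log2 fold change against WT (± SE) of the tested members at 12 h and 36 h in HSCs and LSECs; filled points have an adjusted p under 0.05. The filled points are 5 members in HSCs at 12 h, with Tgfbr1 to the right of 0 and Inhba, Tgfb2, Ltbp1 and Tgfbr3 to the left, and there are none in LSECs.

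Tgfb3 in LSECs was 2.63, 2.40, 1.40 and 1.78 CPM in WT libraries and 1.32, 0.473, 1.36 and 0.952 CPM at 12 h. The groups did not overlap, as for 22.8% of all genes, and the change was -0.98 ± 0.34 (adjusted p = 0.0616, 0.0285 with DESeq2). At 36 h Tgfb3 was 1.54, 2.40, 1.85 and 1.66 CPM, above every 12 h library (adjusted p = 0.0996 between these times). Tgfbr2 in LSECs was 413.1, 501.5, 396.5 and 431.7 CPM at 12 h, of which 1 overlapped the WT range of 480.4 to 604.8 CPM (-0.32 ± 0.11, adjusted p = 0.0599). It was called lower with DESeq2 (0.0312) and without WT replicate 3 (0.0497) or 12 h replicate 2 (0.0284).

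Tgfbr1 in LSECs was 39.2, 24.1, 36.1 and 38.6 CPM at 12 h and 37.5, 37.1, 36.1 and 33.1 CPM at 36 h. At both times its mean lay below the WT values of 38.5 to 49.8 CPM, and at 36 h no library overlapped WT, as for 7.09% of all genes. Neither change passed (-0.36 ± 0.14, adjusted p = 0.0903, and -0.33 ± 0.14, adjusted p = 0.435). Tgfb1, at 213.7 to 269.9 CPM at 12 h, and Tgfbr3, at 381.2 to 493.8 CPM, overlapped their WT levels (adjusted p = 0.346 and 0.612). Ltbp1 stayed under 1 CPM in every LSEC library (1.81 ± 0.81 at 12 h, adjusted p = 0.136).

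Inhbb in LSECs had a wide spread between libraries. It was 120.7, 91.4, 22.1 and 27.8 CPM in WT libraries, 163.8, 94.7, 57.1 and 78.3 CPM at 12 h and 26.5, 29.6, 30.3 and 49.6 CPM at 36 h. WT libraries overlapped both later groups, and neither change against WT passed (0.61 ± 0.47, adjusted p = 0.401, and -0.95 ± 0.48, adjusted p = 0.517). All 36 h libraries were below all 12 h libraries, and Inhbb fell between these times by 1.56 on the log2 scale (SE 0.48, adjusted p = 0.0349), the 1 member of 7 to pass where 21.3% of genes did (10.6% higher, 10.8% lower). Groups were apart between these times for 22% of all genes. It no longer passed without 12 h replicate 1 (0.111) or 2 (0.0519), or 36 h replicate 1 (0.0816), 2 (0.0793) or 3 (0.0857).

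In the LSEC libraries the 10 Kupffer cell markers summed to 540 to 674 CPM in WT and 478 to 764 CPM at 12 h, with Timd4 at 0 at 12 h and 5 of 8 tested lower. This sum is not specific to Kupffer cells. In hepatocytes at 12 h it was 452 to 518 CPM with 8 of the 10 markers at 0, all but Slc40a1 and Nr1h3. The immediate early and heat shock list summed to 858 to 8685 CPM in WT, highest in replicate 2, and 1910 to 10916 CPM at 12 h, with 3 of 10 higher. Stellate cell markers summed to 294 to 423 CPM in WT and 311 to 463 CPM at 12 h. The 12 markers of LSECs themselves summed to 26029 to 31721 CPM in WT and 19437 to 24266 CPM at 12 h, without overlap, with 1 higher and 3 lower. Platelet and megakaryocyte markers summed to 5.79 to 9.70 CPM in WT and 11.05 to 25.6 CPM at 12 h, also without overlap, with 1 of 3 tested higher and Gp6 at 0. Monocyte and neutrophil markers summed to 12.04 to 16.2 CPM in WT and 15.1 to 39.6 CPM at 12 h, with 1 of 8 tested higher. Their part in the values of the members and of the other pathway genes in LSECs was not tested.

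Hepatocytes had no member past the threshold at either time. Of the 5 tested (Tgfbr1, Tgfbr2, Tgfbr3, Inhba and Fst) none passed with edgeR in any of the 3 comparisons of times, none had an unadjusted p under 0.05, and DESeq2 called none. No gene at all passed (0%), and the lowest adjusted p of a member was 0.777. On simulated counts for hepatocytes at 12 h against WT, only 10% of 1.5-fold and 39% of 2-fold changes were recovered. Changes of that size could therefore be missed here. Fst was 4.87, 6.06, 7.15 and 5.75 CPM at 12 h and 2.43, 2.84, 8.35 and 7.12 CPM at 36 h, and Inhba 10.9, 4.49, 4.30 and 7.66 CPM at 12 h and 16.6, 9.38, 4.54 and 9.58 CPM at 36 h. Both overlapped their WT values at both times.

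The hepatocyte values also differed by Malat1 side, given here as a description without a test. Tgfbr2 was 8.16 to 13.4 CPM in the 5 libraries with high Malat1 and 22.8 to 33.7 CPM in the 7 with low Malat1, and Fst 2.38 to 4.87 and 5.75 to 8.35 CPM. The share of all genes that separate on this split was not counted. The ranges of these 2 genes are therefore not read as particular to them. Inhba went the other way, at 8.99 to 17.8 CPM in the libraries with high Malat1 and 4.30 to 9.58 CPM in the others, with overlap. Tgfbr1 (16.4 to 28.6 and 26.3 to 40.3 CPM) and Tgfbr3 (1.01 to 6.01 and 1.47 to 7.99 CPM) overlapped between the sides as well. With a term for the side in the fit, no member passed in any of the 3 comparisons.

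Whether a member responded differently in HSCs and LSECs was tested directly, as the difference between their changes against WT in 1 fit of all 36 libraries. No member of 10 passed with edgeR at 12 h, where 1.62% of 14104 genes did, while 2 had an unadjusted p under 0.05 and DESeq2 called 1. Fst is among the 10 only through its hepatocyte counts. With no count in WT HSCs or WT LSECs, its difference could not pass at 12 h or 36 h (SE 3517 and 2210). Tgfbr1 rose in HSCs but its response there exceeded that in LSECs by 0.87 ± 0.28 without passing (adjusted p = 0.129), and it passed when the fit held only these 2 cell types (0.0118). For Ltbp1 the difference was -2.22 ± 0.63 (adjusted p = 0.0690), and it passed with DESeq2 (0.0226) and without LSEC WT replicate 2 (0.0425) or LSEC 12 h replicate 4 (0.0188), on LSEC levels under 1 CPM. At 12 h none passed between HSCs and hepatocytes (9.2% of genes) or LSECs and hepatocytes (3.57%), with 0 at an unadjusted p under 0.05 in both. Tgfb3 had no count in hepatocytes at WT or 12 h, so it could not pass in either (SE 469 and 1835). At 36 h none passed in the 3 differences, where 0%, 0.00709% and 0.00709% of genes did, and none with DESeq2. An unadjusted p under 0.05 was reached by 1, 2 and 1 members. They were Tgfb2 between HSCs and LSECs, Tgfb2 and Tgfb3 between HSCs and hepatocytes, and Tgfb3 between LSECs and hepatocytes. In hepatocytes Tgfb3 went from 0 counts at WT to 5 at 36 h, all in replicate 4, and Tgfb2 from 1 to 5. In LSECs Tgfb2 went from 10 to 22 counts over the group. Counts this few cannot show a different response.

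The partners of the members were read from lists of the same pathway. Of 9 genes listed as other receptors and coreceptors, 8 were tested in HSCs at 12 h. Of those, 6 were lower and none higher, where 15.1% of all genes were lower and 17% higher. The median log2 fold change was -0.69 against 0.01 over all genes. Nrp1, a coreceptor for several growth factors including TGF-beta, went from 144.9, 139.2, 135.2 and 122.5 CPM in WT HSCs to 54.2, 70.1, 63.6 and 85.3 CPM (-0.97 ± 0.13, adjusted p = 0.000228). The activin type II receptors fell with it. Acvr2a went from 407.8, 335.9, 451.7 and 359.0 CPM to 283.4, 269.2, 137.7 and 222.7 CPM (-0.74 ± 0.19, adjusted p = 0.0105), and Acvr2b from 4.12 to 6.68 CPM to 2.17 to 2.87 CPM (-0.96 ± 0.22, adjusted p = 0.00458). Itfg1, counted in this list though not a known receptor for TGF-beta or activin, fell by 0.64 (SE 0.11, adjusted p = 0.000827). These 4 passed in each of the 14 alternatives. Eng also passed (-0.32 ± 0.11, adjusted p = 0.0399), a call lost in 9 of the 14, among them leaving out WT replicate 1 (0.0802), 2 (0.0757), 3 (0.0670) or 4 (0.0955) or 12 h replicate 1 (0.101) or 2 (0.0958). Acvr1b, the activin type I receptor, did not pass (0.33 ± 0.62, adjusted p = 0.716).

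In LSECs at 12 h, 3 of the 7 tested genes of this list were lower and none higher, where 8.5% of all genes were lower and 9.74% higher. The median was -0.53 against -0.02 over all genes. Nrp1 went from 2516, 2409, 2325 and 2430 CPM to 1695, 1786, 1062 and 1519 CPM (-0.66 ± 0.16, adjusted p = 0.0120). Eng (endoglin), the endothelial TGF-beta coreceptor, went from 3584, 3433, 3505 and 3260 CPM to 1880, 2611, 2103 and 2474 CPM (-0.59 ± 0.12, adjusted p = 0.00509). In both genes all 12 h libraries were below all WT libraries, and both calls stood in each alternative. Acvr2a fell by 0.53 (SE 0.15, adjusted p = 0.0290), a call lost in the fit of 2 groups and without WT replicate 3 or 4 or 12 h replicate 3, where the adjusted p reached at most 0.103. Acvr2b did not pass (-0.61 ± 0.22, adjusted p = 0.0764).

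**Figure D5:**
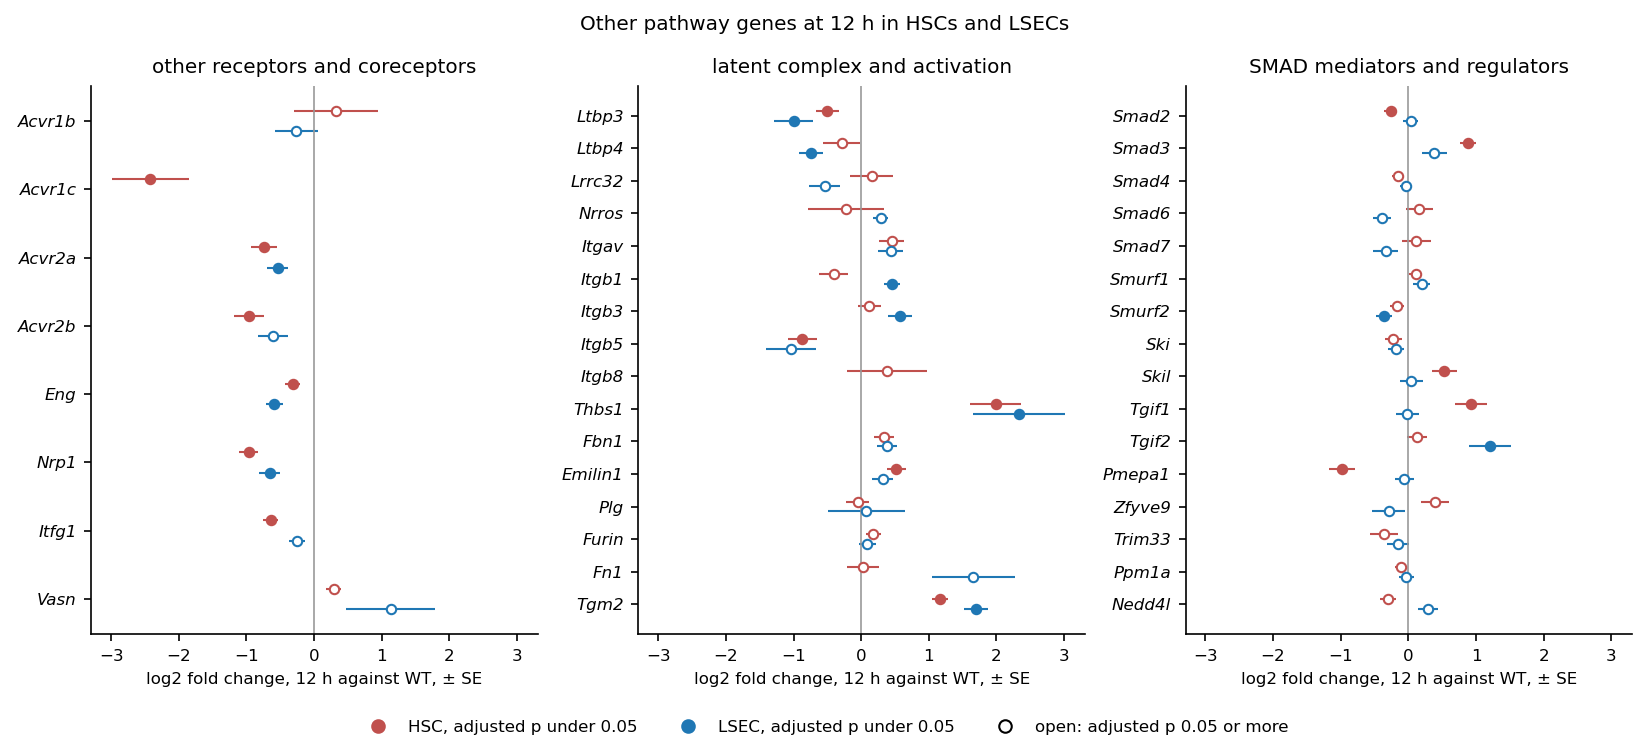
Log2 fold change at 12 h against WT (± SE) in HSCs and LSECs for the tested genes of 3 pathway lists: other receptors and coreceptors, latent complex and activation, and SMAD mediators and regulators; filled points have an adjusted p under 0.05. Genes of the receptor list that passed lie left of 0 in both cell types, and Tgm2 and Thbs1 lie right of 0 in both.

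Genes of the latent complex and its activation moved both ways. Of 19, 16 were tested in HSCs and 5 passed, 3 higher and 2 lower, a share at the 32% of all genes that passed there. In LSECs 15 were tested and 4 were higher and 2 lower, where 9.74% of all genes were higher and 8.5% lower. Tgm2, a transglutaminase that cross-links latent complexes into the matrix, went from 677, 726, 731 and 657 CPM to 1429, 1500, 1661 and 1573 CPM in HSCs (1.16 ± 0.12, adjusted p = 4.2e-05). In LSECs it went from 684, 586, 387 and 601 CPM to 1722, 1846, 2232 and 1416 CPM (1.69 ± 0.18, adjusted p = 0.000188), and in both cell types no 12 h library overlapped WT. Thbs1, a thrombospondin that can activate latent TGF-beta, went from 65.4, 92.2, 49.5 and 52.7 CPM to 481.6, 197.7, 215.3 and 119.5 CPM in HSCs (1.99 ± 0.37, adjusted p = 0.00156). Itgb5, an integrin chain, fell there by 0.87 (SE 0.21, adjusted p = 0.00669), and Emilin1, a matrix protein that restrains processing of the TGF-beta precursor, rose by 0.52 ± 0.14 (adjusted p = 0.0121). Ltbp3, a further latent TGF-beta binding protein, was the other gene to pass in HSCs (-0.50 ± 0.17, adjusted p = 0.0402), outside the naming rule and named after its value was seen. It was lost without WT replicate 1 (0.1001), 2 (0.0790), 3 (0.0515) or 4 (0.0710) or 12 h replicate 3 (0.114) or 4 (0.0747). In LSECs Ltbp4, another binding protein of this family, fell by 0.74 (SE 0.18, adjusted p = 0.0126) in each alternative tried. The calls of Itgb1 (0.45 ± 0.12, adjusted p = 0.0214) and Ltbp3 (-0.997 ± 0.285, adjusted p = 0.0273) in LSECs were each lost without some single libraries. For Itgb1 these were WT replicates 1 (0.0644) and 3 (0.0559) and 12 h replicates 1 (0.0598) and 3 (0.0566), and for Ltbp3 WT replicates 1 (0.0930) and 2 (0.0602) and 12 h replicates 3 (0.0787) and 4 (0.0715). The other 2 higher in LSECs were Thbs1 (2.33 ± 0.68, adjusted p = 0.0290), under 5 CPM, and Itgb3 (0.57 ± 0.17, adjusted p = 0.0372), an integrin chain, both named in LSECs after their values were seen. Thbs1 was lost there with the replicate block (0.0655) and without WT replicate 1 (0.0594) or 12 h replicate 1 (0.0582) or 4 (0.0804). Itgb3 was lost in the fit of 2 groups (0.0566) and without WT replicate 2 (0.0981), 3 (0.0862) or 4 (0.0900) or 12 h replicate 1 (0.0875), 3 (0.1102) or 4 (0.0723).

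Of the 16 SMAD mediators and regulators, 5 passed in HSCs at 12 h, 3 higher and 2 lower, a share at the 32% of all genes that passed. Smad3, a receptor-activated transcription factor, went from 55.9, 68.4, 49.1 and 57.5 CPM to 91.3, 111.5, 106.0 and 112.7 CPM (0.89 ± 0.12, adjusted p = 0.000183). Pmepa1, an inhibitor that TGF-beta signalling itself induces, went the other way, from 130.2, 139.5, 171.8 and 165.1 CPM to 57.4, 55.9, 85.5 and 103.7 CPM (-0.98 ± 0.19, adjusted p = 0.00194). Neither gene's groups overlapped. Tgif1, a SMAD corepressor, rose by 0.92 ± 0.24 (adjusted p = 0.0102) from a mean of 3.55 ± 0.860 CPM to 6.66 ± 2.29 CPM (SD, n = 4). Skil, another corepressor, and Smad2 passed narrowly (0.53 ± 0.19, adjusted p = 0.0424, and -0.26 ± 0.09, adjusted p = 0.0479). Skil was lost without any of 7 single libraries, all but WT replicate 1, and Smad2 without any of 6, all but WT replicate 1 and 12 h replicate 2, with an adjusted p of at most 0.105 for Skil and 0.152 for Smad2. In LSECs 2 of the 16 passed at 12 h, where 18.2% of all genes did: Tgif2, under 5 CPM and named after its value was seen, was higher (1.21 ± 0.31, adjusted p = 0.0152), and Smurf2 lower (-0.36 ± 0.12, adjusted p = 0.0477), a call lost without any of 7 single libraries, all but 12 h replicate 4 (adjusted p at most 0.132). Smad7, the classical feedback inhibitor, did not pass in HSCs (0.12 ± 0.22, adjusted p = 0.712) or in LSECs (-0.33 ± 0.19, adjusted p = 0.236).

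Of 21 response genes in the files, 18 were tested in HSCs at 12 h and 5 were higher and 1 lower, where 17% of all genes were higher and 15.1% lower. Col1a1, the fibrillar collagen chain of activated stellate cells, went from 275.9, 300.5, 240.9 and 271.0 CPM in WT to 455.5, 479.2, 546.8 and 507.8 CPM at 12 h (0.89 ± 0.14, adjusted p = 0.000420). At 36 h it was 469.1, 645.1, 416.6 and 491.9 CPM (0.89 ± 0.14, adjusted p = 0.0246), the 1 gene of all these lists that passed at 36 h in HSCs. That call was lost without any 1 of the 4 WT libraries or without 36 h replicate 1 or 4, with an adjusted p of at most 0.127. Bhlhe40, a transcription factor, rose by 2.35 ± 0.32 at 12 h (adjusted p = 0.000189) and Tsc22d1, a TGF-beta-stimulated gene, fell by 1.001 (SE 0.176, adjusted p = 0.00104). Members of the response list moved both ways.

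In LSECs 16 response genes were tested at 12 h, with 1 higher and 2 lower, a total near the 18.2% of all genes that passed, and each call stood in every alternative tried. Cdkn1a, a cell cycle inhibitor, rose from 64.0 ± 28.9 to 192.2 ± 55.8 CPM (SD, n = 4; 1.60 ± 0.31, adjusted p = 0.00373). Klf10, a TGF-beta-inducible transcription factor, fell from 159.4 ± 52.3 to 65.5 ± 17.8 CPM (-1.27 ± 0.23, adjusted p = 0.00242), and Ldlrad4, an inhibitor of SMAD activation, fell by 0.70 (SE 0.12, adjusted p = 0.00224). Among the 11 extracellular inhibitors, 8 were tested in HSCs at 12 h, with 1 higher and 1 lower where 32% of all genes passed, and 6 in LSECs, with 1 lower where 18.2% passed. Lum (lumican) fell in HSCs from 1621 ± 150.5 to 980.6 ± 182.0 CPM (-0.70 ± 0.16, adjusted p = 0.00484) and Bgn (biglycan), a proteoglycan that binds TGF-beta, fell in LSECs from 271 ± 17.3 to 141 ± 17.9 CPM (-0.93 ± 0.12, adjusted p = 0.000397). The other call in this list was Fstl3, a follistatin-like activin inhibitor, which rose in HSCs by 1.53 ± 0.36 (adjusted p = 0.00583) to 2.18 ± 0.470 CPM and is named after its value was seen.

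Hepatocytes also expressed the activin-related chains Inhbc and Inhbe. Inhbe, whose product is a liver-made activin E chain, was 7.97, 9.81, 7.47 and 7.69 CPM in WT, 31.7, 11.8, 18.003 and 25.9 CPM at 12 h and 30.5, 22.7, 8.81 and 21.9 CPM at 36 h. All 12 h libraries were above all WT libraries, as for 3.15% of genes, but the change of 1.38 ± 0.36 did not pass with edgeR (adjusted p = 0.530), nor did that at 36 h (1.33 ± 0.36, adjusted p = 0.436). DESeq2 called both (0.0415 and 0.0484). Inhbc was 68.2 to 87.9 CPM in WT, 63.6 to 120.4 CPM at 12 h and 70.9 to 130.4 CPM at 36 h, with overlap (adjusted p = 0.999 at 12 h). Both chains stayed under 1 CPM in every HSC and LSEC library (Inhbc in HSCs at 12 h 0.66 ± 0.63, adjusted p = 0.445).

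Across all 36 libraries the genes most like each member were listed by Pearson's r of log2(CPM + 0.5), a description that mostly reflects the 3 cell types and carries no p. Tgfb3 was most like Ltbp3 (r = 0.992), Ltbp1 most like Astn2, Tbx20 and Bmp10 (0.997 each) and Inhbb most like Shank3 (0.992). Fst was most like Sytl5 (0.995) and Inhba most like Nr1h4 (0.978). For Tgfbr1, whose levels differ least between cell types, the highest values were 0.914 for Ifnar2 and 0.913 for Smad3.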

How the data were processed

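RNA of HSCs, LSECs and hepatocytes was sequenced in 36 libraries, 9 groups of 4. The authors deposited raw read counts per gene symbol for each library, and the further 5 lines per file that name no gene were left out (4.9% to 9.02% of reads had no feature). FastQC 0.11.4, Trimmomatic 0.35, TopHat2 2.1.0, SAMtools 0.1.18 and the mm10 build are named in the submitters' processing notes; the counting tool, annotation and strand setting are not stated there. No 2 libraries held identical counts.

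Times were compared within each cell type and cell types within each time, with edgeR 4.0.16 (R 4.3.3; quasi-likelihood test, TMM scaling, filterByExpr with a minimum count of 10 and total of 15) and Benjamini-Hochberg adjustment over all genes tested; an adjusted p under 0.05 was a call. The response difference was an interaction in a fit of 9 groups. Printed CPM use TMM factors over all 36 libraries, a choice made after the counts were seen, so ratios of means can differ from fitted folds. Floors are 3 counts over a group and cover counting error only. Gene positions and exon lengths came from GENCODE M21 (GRCm38) and promoters from RefSeq (GRCm38.p6).

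The members and lists were chosen with earlier results of these data known. All members are named; of each other pathway list, up to 4 called genes per comparison with WT are named by smallest adjusted p if their larger group mean reached 5 CPM, and Inhbc, Inhbe, Inha, Acvr2a, Acvr2b, Acvr1b and Smad7 wherever the text turns on them; some genes the rule names are not reported here. Alternatives were RLE scaling, no scaling factor, no filter, DESeq2 1.42.0, a replicate block, fits of only the groups compared, a Malat1 term in hepatocytes, and leaving out each library. Replicate numbers come from the labels, which do not say that a number marks a shared animal or day. Same-numbered libraries deviated together, with every pair's correlation over 0.1, between WT and 36 h in HSCs (0.11 to 0.263) and hepatocytes (0.44 to 0.575) and between HSCs and LSECs at WT (0.103 to 0.402), 12 h (0.207 to 0.481) and 36 h (0.17 to 0.274). HSCs at 36 h and LSECs at WT also did (0.167 to 0.253), though they differ in both cell type and state. Within HSCs, WT and 12 h did not (0.00929 to 0.141). In hepatocytes at WT and 36 h, replicates 1 and 2 had high Malat1 and replicates 3 and 4 low. Replicate number and Malat1 side cannot be told apart there. At 12 h, where hepatocyte replicate 2 had low Malat1, its correlation was -0.129 with WT and -0.125 with 36 h. On simulated counts for HSC 12 h against WT (12676 genes), 22% of 1.5-fold and 74% of 2-fold changes were recovered, with 2.04% false calls. Far fewer genes were changed there than the 32% called in the data, which makes the adjusted threshold stricter. Those recovery rates therefore need not hold for the real comparison. For the HSC and LSEC response difference (14104 genes) 1% and 26% were recovered, with 6.9% false calls.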

Additional observations from a re-analysis of the deposited data

Results flagged for a closer look

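In 4 of the 57 groups of 4 libraries with a mean of at least 1 CPM of a member, 1 library stood apart from the other 3 by a gap that passes Dixon's outlier criterion; chance gives about 1 in 20 groups. Inhbb in LSEC 36 h replicate 4 was 49.6 CPM against 26.5 to 30.3 CPM. Tgfb1 in HSC 36 h replicate 4 was 106.6 CPM against 82.4 to 86.5 CPM. Tgfbr1 in HSC WT replicate 2 was 60.1 CPM against 78.0 to 80.9 CPM, in the WT library with the highest immediate early and heat shock sum (4849 CPM). Tgfbr1 in hepatocyte 12 h replicate 1 was 23.5 CPM against 35.6 to 36.3 CPM, in the 12 h hepatocyte library with high Malat1. The part of these features in the values was not tested.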

How the results depend on the processing

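No result reversed under an alternative; a gene past the threshold in neither fit counted as unchanged even where its sign differed. Of the 24 counts of called members, 373 values under alternatives stayed within 1.5 times and 23 moved. In HSCs at 12 h against WT the count was 5, and 3 with no filter on low counts. For HSC 36 h against WT it was 0, and 1 with DESeq2 and 1 in the fit of only these 2 groups. For HSC 36 h against 12 h it was 4, and 2 in the fit of only these 2 groups. For LSEC 12 h against WT it was 0, and 2 with DESeq2. For the difference between HSC and LSEC responses at 12 h it was 0, and 1 both with DESeq2 and in the fit of these 2 cell types. The cause was not tested.

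Leaving out 1 library gave 2 to 6 members for HSC 12 h against WT, 2 to 4 for HSC 36 h against 12 h, 0 to 1 for LSEC 12 h against WT, for LSEC 36 h against 12 h and for the HSC and LSEC response difference at 12 h. It gave 7 to 8 for HSC against LSEC at 36 h, 8 to 9 for HSC against hepatocyte at WT, and 7 to 9, 8 to 9 and 9 to 10 for LSEC against hepatocyte at WT, 12 h and 36 h, and one constant value in the other comparisons.

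With the replicate number as a block (replicate block), HSC 12 h against WT gave 4 members, with Tgfbr3 lost (adjusted p = 0.0571), and no other call of a member changed, including where the numbers paired the libraries. With no scaling factor the median of all genes between HSCs and hepatocytes at WT moved from 0.18 to 0.86 and between LSECs and hepatocytes from 0.18 to 1.01, so differences from hepatocytes are relative to the scaling used. Members left out by the filter on low counts (Inhbb and Fst in HSCs, Tgfb2, Inhba and Fst in LSECs, Tgfb1 to Tgfb3, Ltbp1 and Inhbb in hepatocytes) were not tested for a change with time within that cell type.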
